A study of Rattus norvegicus with 40 samples.

Results

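The proteasome genes described here were the gene models with a symbol that begins with Psma, Psmb, Psmc, Psmd, Psme or Psmg followed by a digit. They were 50 of the 31677 gene models in the deposited tables, and 46 of them were tested in all 15 tables. By the role of the product, 8 encode subunits of the alpha ring of the 20S core, 4 encode structural subunits of its beta ring, 3 encode the constitutive catalytic subunits and 3 encode the catalytic subunits of the immunoproteasome. Psmb11 encodes the catalytic subunit of the thymoproteasome. Another 6 encode ATPases of the 19S regulatory particle, 3 other subunits of its base and 8 subunits of its lid. The assembly chaperones numbered 7, the subunits of the PA28 alpha and beta activator 2, and other activators 2. The last 3 matched the symbols only: Psmc3ip, a meiotic recombination factor named for an ATPase it binds, Psma3l, a Psma3-like copy, and a short model on chromosome 2 that carries the symbol PSMB6 of a gene on chromosome 10.

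The proteasome is the protease that degrades most ubiquitin-tagged proteins of the cytosol and nucleus. In its 20S core the alpha rings form the gate and the beta rings hold the cutting sites, and the 19S particle binds tagged proteins, unfolds them with its ATPases and feeds them into the core. In lymphocytes, and in other cells exposed to interferon gamma, Psmb8, Psmb9 and Psmb10 take the places of Psmb5, Psmb6 and Psmb7 in newly built cores. This immunoproteasome, often with the PA28 activator made of Psme1 and Psme2, trims peptides that are shown to T cells on class I molecules.

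RNA was sequenced from T cells of Dahl salt-sensitive rats, bred as a model of blood pressure that rises with dietary salt, isolated from blood (circulating) and from kidney. The rats were of the types SS/MCW and SS/CRL, fed low-salt (LS) or high-salt (HS) chow. Groups at 10 weeks of age were SS/MCW on LS, SS/MCW on HS, SS/CRL on LS and SS/CRL on HS, with 3 weeks of high salt in the HS groups, and SS/MCW on LS was also sampled at 7 weeks. Each group was sampled in both tissues as 4 libraries, each from a pool of 3 rats, which gave 40 libraries in 10 groups. No untreated control other than LS chow and no altered allele was named in the labels.

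All levels are the authors' FPKM, fragments scaled to transcript length and library size, with 1 value per group. Values per library were not used here, so no spread among libraries can be printed, and depth is unknown. A gene is said to be called, to have risen or to have fallen where its q from Cuffdiff, as the authors' deposited table gives it, was under 0.05. Counts of members at an unadjusted p under 0.05 are given without the share of all gene models at that p. The shares of all gene models called, at a q under 0.05, are not a background for those counts, which thus do not set the members apart. The 5 comparisons of kidney with circulating cells use each group once and share no library, whereas comparisons within a tissue share groups with each other.

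The kidney samples held less T cell RNA than the circulating ones. All 17 T cell marker genes were called lower in kidney in each of the 5 tissue comparisons, and their summed FPKM was 5566 to 6779 in circulating groups and 259 to 959 in kidney groups. None of the 17 was at 0 in a kidney group. The 14 proximal tubule markers summed to 0.27 to 1.17 FPKM in circulating groups and 2796 to 11072 FPKM in kidney groups. The 7 markers of thick limb, distal tubule and collecting duct summed to 4.66 to 7.86 and 1419 to 14386 FPKM. The 10 macrophage markers summed to 50.2 to 69.2 and 153 to 873 FPKM, and the 4 red cell markers to 59.3 to 193 and 403 to 3960 FPKM. In bulk samples, fewer cells of a type and less RNA per cell cannot be told apart. How far this mixture of cells accounts for the tissue differences given next was not tested.

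Every proteasome gene model had a value above 0 in all 10 groups. Psme1, the alpha subunit of PA28, was the member with the highest level, at 708 to 972 FPKM in circulating and 339.7 to 516 FPKM in kidney groups. Within the core, Psma7 was the highest alpha ring gene, with a median of 349 FPKM over circulating groups and 321 FPKM over kidney groups. Among structural beta subunits Psmb4 was the highest, with medians of 317 and 266 FPKM, and Psmb2 the lowest, with 114 and 99.4 FPKM. Among the regulatory particle genes the ATPases ranged from Psmc6, with a median of 25.7 FPKM in circulating groups, to Psmc3, with 111 FPKM. Among the other base subunits, Psmd1, the scaffold of the base, had a median of 23.0 FPKM and the ubiquitin receptor Psmd4 92.3 FPKM in circulating groups. Among the assembly chaperones, Psmg2 had the lowest median in circulating groups, 13.2 FPKM, and Psmg4 the highest, 74.1 FPKM.

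A few members were nearly silent. Psma8, a testis alpha subunit, lay between 0.02 and 0.09 FPKM in circulating and between 0.38 and 2.62 FPKM in kidney groups. The chromosome 2 PSMB6 model did not exceed 0.69 FPKM in circulating or 1.23 FPKM in kidney groups. Psma3l lay between 2.27 and 2.78 FPKM in circulating and between 0.53 and 2.00 FPKM in kidney groups. Reads of such copies can be shared with the parent gene, so their levels are uncertain. Psmc3ip was at 4.41 to 6.33 FPKM in circulating and 14.0 to 16.6 FPKM in kidney groups, and was called in none of the 15 tables.

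The promoters of the interferon-inducible members are shown because all 5 of these genes had lower values in kidney in every tissue comparison. Each sequence runs from 180 bases before to 20 bases after the RefSeq transcript start in build GRCr8, 5′ to 3′ on the strand of the gene. Capitals mark the core of the interferon-stimulated response element, spelled GAAA, then any NN, then GAAA, on either strand.
Psmb8: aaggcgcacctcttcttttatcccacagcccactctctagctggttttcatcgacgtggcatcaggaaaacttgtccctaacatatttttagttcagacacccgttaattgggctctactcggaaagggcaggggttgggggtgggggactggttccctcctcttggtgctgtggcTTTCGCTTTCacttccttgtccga
Psmb9: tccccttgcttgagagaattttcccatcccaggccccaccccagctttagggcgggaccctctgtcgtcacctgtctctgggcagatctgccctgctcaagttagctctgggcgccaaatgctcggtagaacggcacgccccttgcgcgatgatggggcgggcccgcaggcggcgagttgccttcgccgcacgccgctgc
Psmb10: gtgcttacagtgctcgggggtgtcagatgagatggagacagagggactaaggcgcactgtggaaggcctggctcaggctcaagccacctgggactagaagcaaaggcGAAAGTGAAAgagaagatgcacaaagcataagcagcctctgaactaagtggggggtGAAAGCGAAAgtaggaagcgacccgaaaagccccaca
Psme1: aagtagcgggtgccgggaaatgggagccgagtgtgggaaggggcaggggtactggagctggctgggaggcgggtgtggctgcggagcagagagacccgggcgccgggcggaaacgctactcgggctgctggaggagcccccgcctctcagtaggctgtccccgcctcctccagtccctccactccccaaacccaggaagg
Psme2: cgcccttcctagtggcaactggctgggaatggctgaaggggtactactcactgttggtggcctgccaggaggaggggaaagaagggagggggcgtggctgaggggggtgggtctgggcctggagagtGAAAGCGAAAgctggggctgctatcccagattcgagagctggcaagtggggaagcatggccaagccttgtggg
The windows lie at chr20:4657012-4657211 (minus strand), chr20:4668820-4669019 (plus), chr19:50743273-50743472 (minus), chr15:33038791-33038990 (plus) and chr15:33052732-33052931 (minus). Psmb8 holds the core on the strand opposite to the gene, with its first printed base 4 bases before the transcript start. Psmb10 holds it at 73 and again at 17 bases before the start, and Psme2 at 53 bases before it. Psmb9 and Psme1 had no match from 250 bases before to 50 bases after the start, which says only that these letters are not in that window.

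Of the 49 member symbols, 43 had a promoter in the RefSeq table. The core was found in 7 of them, or 16.3%, against 3.92% of all 33469 promoters. Besides Psmb8, Psmb10 and Psme2, these were Psma4, Psmb3, Psmd7 and Psmg4, which carry no immunoproteasome role. The gamma interferon site TTCNNNGAA, on either strand, was in 4 of the 43, or 9.3%, against 8.87% of all promoters. The antioxidant response core TGANNNNGC, read by the regulators Nfe2l1 and Nfe2l2, was in 22, or 51.2%, against 40.5% of all. The stricter TGACTCAGC was in 0 of the 43 against 0.415%. A match is a description of letters, not of a bound site. The constitutive catalytic gene Psmb5 is shown as one holder of the antioxidant core, in capitals 60 bases before the start, at chr15:32047360-32047559 (minus strand).
Psmb5: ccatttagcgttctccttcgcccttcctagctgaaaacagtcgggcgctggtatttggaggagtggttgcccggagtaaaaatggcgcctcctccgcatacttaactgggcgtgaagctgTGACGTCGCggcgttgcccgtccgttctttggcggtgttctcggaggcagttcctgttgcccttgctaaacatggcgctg

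Kidney T cell samples held more of the constitutive catalytic subunits and less of their immunoproteasome replacements than circulating T cells. Psmb8, the chymotrypsin-like immunoproteasome subunit that replaces Psmb5, had 227 FPKM in circulating cells of LS-fed SS/MCW rats at 7 weeks, 166 at 10 weeks, 220.4 in HS-fed SS/MCW rats, 166 in LS-fed SS/CRL rats and 212 in HS-fed SS/CRL rats. In kidney the corresponding Psmb8 levels were 47.2, 72.6, 99.5, 34.2 and 32.6 FPKM. All 5 kidney values lay below all 5 circulating values. How many of all gene models show no overlap between the tissues is not given here. Lack of overlap, here and below, thus does not set a member apart. The fold by which Psmb8 was lower in kidney was 4.81 at 7 weeks, 2.28 and 2.22 in LS- and HS-fed 10-week SS/MCW rats, and 4.84 and 6.51 in LS- and HS-fed SS/CRL rats, with q values per the authors' deposited table of 0.000141, 0.022, 0.0042, 0.000146 and 0.000144.

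Psmb9, which replaces Psmb6, had 183, 135, 184, 139 and 159.7 FPKM in the circulating groups, in the same order. Its kidney levels were 35.0, 47.7, 77.3, 34.9 and 36.6 FPKM. It was called lower in kidney in all 5 comparisons, by 5.22-, 2.84-, 2.38-, 3.97- and 4.36-fold. Psmb10, which replaces Psmb7, had 222, 147, 194, 138 and 181 FPKM in circulating and 38.2, 92.0, 86.8, 43.0 and 40.8 FPKM in kidney groups. It was called lower in 4 of 5 comparisons, by 5.82-fold at 7 weeks, 2.23-fold in HS-fed SS/MCW rats and by 3.20- and 4.44-fold in LS- and HS-fed SS/CRL rats. In 10-week LS-fed SS/MCW rats Psmb10 was 1.59-fold lower and not called, with q = 0.0967 per the authors' deposited table.

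The constitutive partners went the other way. Psmb5 had 152, 106, 140, 101 and 125 FPKM in circulating and 278, 216, 182, 183 and 189 FPKM in kidney groups, so that every kidney value was above every circulating value. Psmb5 was called higher in kidney in 4 of 5 comparisons, by 1.52- to 2.04-fold, and in HS-fed SS/MCW rats it was 1.30-fold higher and not called. Psmb6 had 99.0, 75.8, 98.2, 68.0 and 81.4 FPKM in circulating and 127, 166, 125, 140 and 116 FPKM in kidney groups. It was called higher in 3 comparisons, by 2.18-fold in 10-week LS-fed SS/MCW rats and by 2.05- and 1.43-fold in LS- and HS-fed SS/CRL rats. Psmb7 had 113, 89.5, 108, 90.2 and 108 FPKM in circulating and 149, 157, 149.9, 133 and 167 FPKM in kidney groups. It was called higher in 4 comparisons, by 1.32- to 1.75-fold, and was 1.38-fold higher without a call in HS-fed SS/MCW rats.

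**Figure D1:**
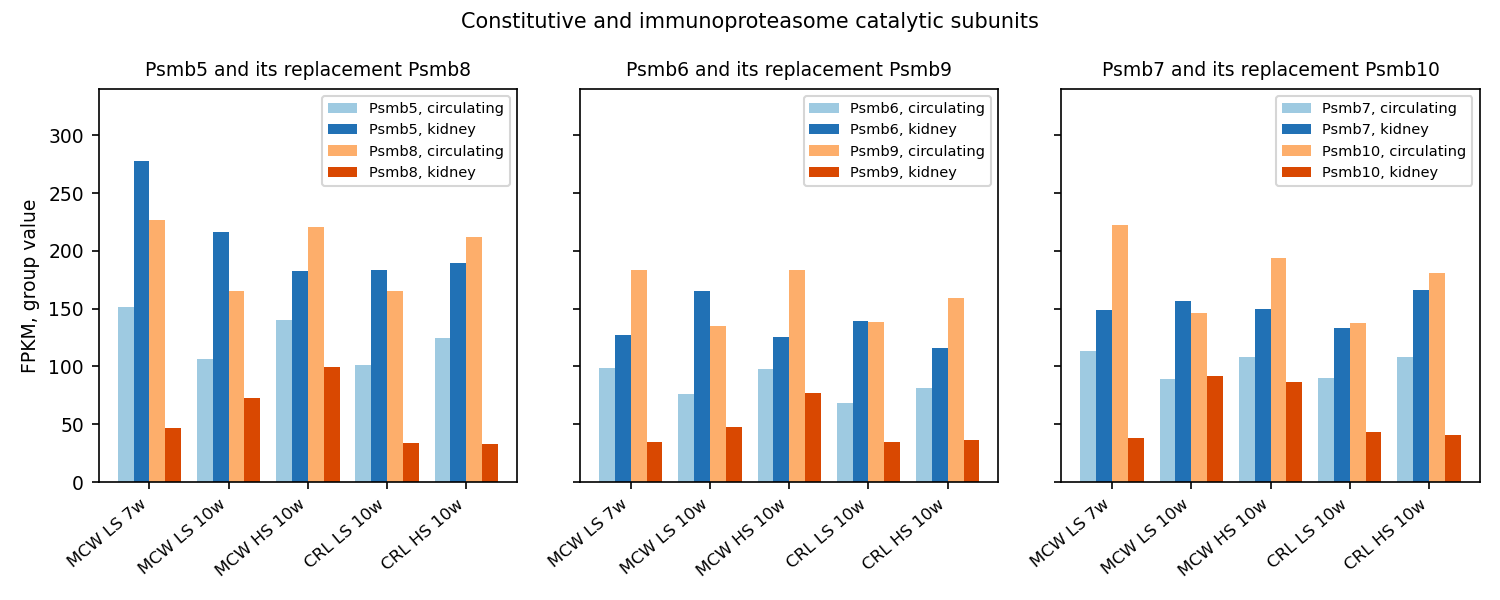
Authors' FPKM (y axis, 1 value per group) of each constitutive catalytic subunit and its immunoproteasome replacement in circulating and kidney T cells of the 5 groups of rats (x axis; SS/ omitted). In every group the replacement has the higher bar of the pair in circulating cells and the lower bar in kidney, with Psmb8 at 166 to 227 FPKM against 32.6 to 99.5 FPKM.

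Of the PA28 genes, Psme1 was called lower in kidney in all 5 comparisons and Psme2 in 3. Psme1 had 934, 768, 972, 708 and 905 FPKM in circulating and 415, 433, 516, 339.7 and 411 FPKM in kidney groups, without overlap, and was lower by 1.77- to 2.25-fold. Psme2 had 208, 153, 184, 160.3 and 175 FPKM in circulating and 93.2, 108, 128, 81.6 and 90.8 FPKM in kidney groups. It was called lower at 7 weeks and in both SS/CRL comparisons, by 1.93- to 2.23-fold, and was 1.42- and 1.43-fold lower without a call in 10-week LS-fed SS/MCW rats and on HS. Psme3, the nuclear PA28 gamma, was called in kidney only for LS-fed SS/CRL rats, higher at 246 against 154 FPKM. Psme4, the PA200 activator, was called in none of the 5, with 30.3 to 32.5 FPKM in circulating and 22.0 to 44.0 FPKM in kidney groups.

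Psmb11, which replaces Psmb5 in thymic cortical epithelium, had 0.59, 0.24, 0.22, 0.36 and 0.15 FPKM in circulating and 2.48, 6.25, 1.41, 6.29 and 9.00 FPKM in kidney groups. It was called higher in kidney in 4 of 5 comparisons, and was not called in HS-fed SS/CRL rats, where the q was 0.28 in the authors' deposited table. Its highest kidney level was far under that of Psmb5. In build rn5 the Psmb11 model, at chr15:37155797-37157346, is near that of Psmb5, at chr15:37143058-37147105.

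Over all members, few passed the test in every tissue comparison. At 7 weeks 8 members were called higher in kidney and 14 lower, where 32.9% and 23.9% of all tested gene models were called higher and lower. In SS/MCW rats at 10 weeks 7 and 4 members were called on LS (26.6% and 17% of all) and 4 and 7 on HS (30.6% and 18.4%). In SS/CRL rats 18 and 10 were called on LS (31.5% and 22%) and 8 and 10 on HS (30.6% and 20.3%). The share of members called higher was under that of all gene models except on LS in SS/CRL rats, where 18 of 49 tested members were called. The share called lower was near or under that of all gene models, so neither count sets the members as a whole apart.

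The members called in all 5 comparisons were 3 higher, Psmd8, PSMG3 and Psmg1, and 3 lower, Psmb8, Psmb9 and Psme1, which is 6% of the 50 in each direction. Of the 18271 gene models tested in all 5 tables, 18.4% were called higher in every one and 13.6% lower in every one. Another 16 members were called in none of the 5, and no member was called in opposite directions.

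The median of gene models with at least 5 FPKM in both groups was itself below 0 in these comparisons, at a log2 value of -0.22 at 7 weeks, -0.19 and -0.23 in LS- and HS-fed 10-week SS/MCW rats, and -0.15 and -0.22 in LS- and HS-fed SS/CRL rats. The median log2 ratio of the members was -0.11, 0.17, 0.01, 0.17 and 0.06 in that order. Relative to the median of all, the members' median was 0.11, 0.36, 0.24, 0.32 and 0.28. No called member changes direction when this shift is taken off. With a normal p of the deposited statistic, adjusted over all gene models, 5, 1, 0, 7 and 7 members were called in that order, and with the shift taken off as well 6 higher and 4 lower, 2 and 0, 0 and 0, 4 and 4, and 6 and 4. Under that p, Psmb8, Psmb9, Psmb10 and Psme1 kept their calls at 7 weeks and in both SS/CRL comparisons, and none of these 4 was called in LS- or HS-fed 10-week SS/MCW rats.

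The other core genes differed little between the tissues. Of the 7 expressed alpha ring genes, Psma1 to Psma7, no member was called higher in kidney in any comparison. Psma4 was called lower in 2, and Psma1 and Psma6 in 1 each. Psma7, the highest of them, had 442, 299, 385, 306 and 349 FPKM in circulating and 342, 347, 321, 275 and 291 FPKM in kidney groups, which overlap, and was called in none. The model that holds Psma2 also carries the symbol RGD1308147, so its level, 129 to 167 FPKM in circulating and 152 to 173 FPKM in kidney groups, is uncertain. Of the structural beta subunits, Psmb2 and Psmb3 were called in none, Psmb4 lower at 7 weeks and Psmb1 lower in 3 comparisons. Psmb1, named here after its values were seen, had 248 to 310 FPKM in circulating and 187 to 216 FPKM in kidney groups. Relative to the median of all gene models, 0 of these 4 beta genes lay above it at 7 weeks, 3 and 0 in LS- and HS-fed 10-week SS/MCW rats, and 1 and 2 in LS- and HS-fed SS/CRL rats.

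Genes of the 19S lid moved in both directions within the same comparisons. Psmd8, a lid subunit, had 42.8, 30.5, 39.3, 30.7 and 36.4 FPKM in circulating and 75.3, 79.8, 75.1, 67.1 and 73.3 FPKM in kidney groups, and was called higher in all 5, by 1.76- to 2.61-fold. Psmd14, the deubiquitinase of the lid, had 61.3, 54.9, 62.9, 54.2 and 62.9 FPKM in circulating and 34.3, 35.4, 34.5, 34.8 and 41.4 FPKM in kidney groups. It was called lower in 4 of 5, and in 10-week LS-fed SS/MCW rats its q was 0.0568 in the authors' deposited table. Neither gene's tissue ranges overlapped. Psmd13, chosen after its values were seen, was called lower in the same number of comparisons, with 67.7 to 86.0 FPKM in circulating and 50.8 to 57.7 FPKM in kidney groups. The model that holds Psmd11 was called lower in 4 as well, at 105 to 119 against 64.4 to 72.9 FPKM, but it also carries the symbols Mir632 and Zfp207, so the genes cannot be told apart. Psmd6 was called higher in 2 comparisons and Psmd3 in 1, LS-fed SS/CRL rats, at 63.4 against 43.3 FPKM, and Psmd7 and Psmd12 in none.

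In the 19S base, no gene was called lower in kidney in any comparison. On LS in SS/CRL rats 4 of the 6 ATPases and 2 of the 3 other base subunits were called higher, among them Psmc3, at 83.0 against 125 FPKM, and the ubiquitin receptor Psmd4, at 72.1 against 98.1 FPKM. Outside that comparison the only base gene called was Psmc2, higher in HS-fed SS/CRL rats at 59.2 against 90.5 FPKM. Psmc1, Psmc6 and Psmd1 were called in none of the 5.

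Of the assembly chaperones, Psmg1 and PSMG3 were higher in kidney in all 5 comparisons. Psmg1, a chaperone of the alpha ring, had 37.6, 28.6, 35.0, 27.2 and 31.8 FPKM in circulating and 64.4, 56.4, 60.2, 40.4 and 61.2 FPKM in kidney groups. PSMG3 had 18.1, 12.3, 18.6, 13.2 and 15.9 FPKM in circulating and 38.4, 38.0, 35.4, 30.1 and 34.2 FPKM in kidney groups. The rises were 1.49- to 1.97-fold for Psmg1 and 1.90- to 3.10-fold for PSMG3. Both were called in all 5, where 18.4% of gene models tested in all 5 comparisons were called higher in every one. Neither gene overlapped between the tissues, for which the share of all gene models is not given here. Their dimer partners Psmg2 and Psmg4 were called in none. Of the ATPase ring chaperones, Psmd5 was called higher in LS-fed SS/CRL rats, at 27.0 against 14.5 FPKM, and PSMD9 lower at 7 weeks, at 23.7 against 35.2 FPKM. Psmd10, the chaperone gankyrin, was called higher at 7 weeks, at 24.9 against 12.6 FPKM, and in LS-fed SS/CRL rats, at 29.6 against 14.5 FPKM. The Psmd10 model lies on chromosome 3 of build rn5, a chromosome other than the one RefSeq gives for the gene, so its identity is uncertain.

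**Figure D2:**
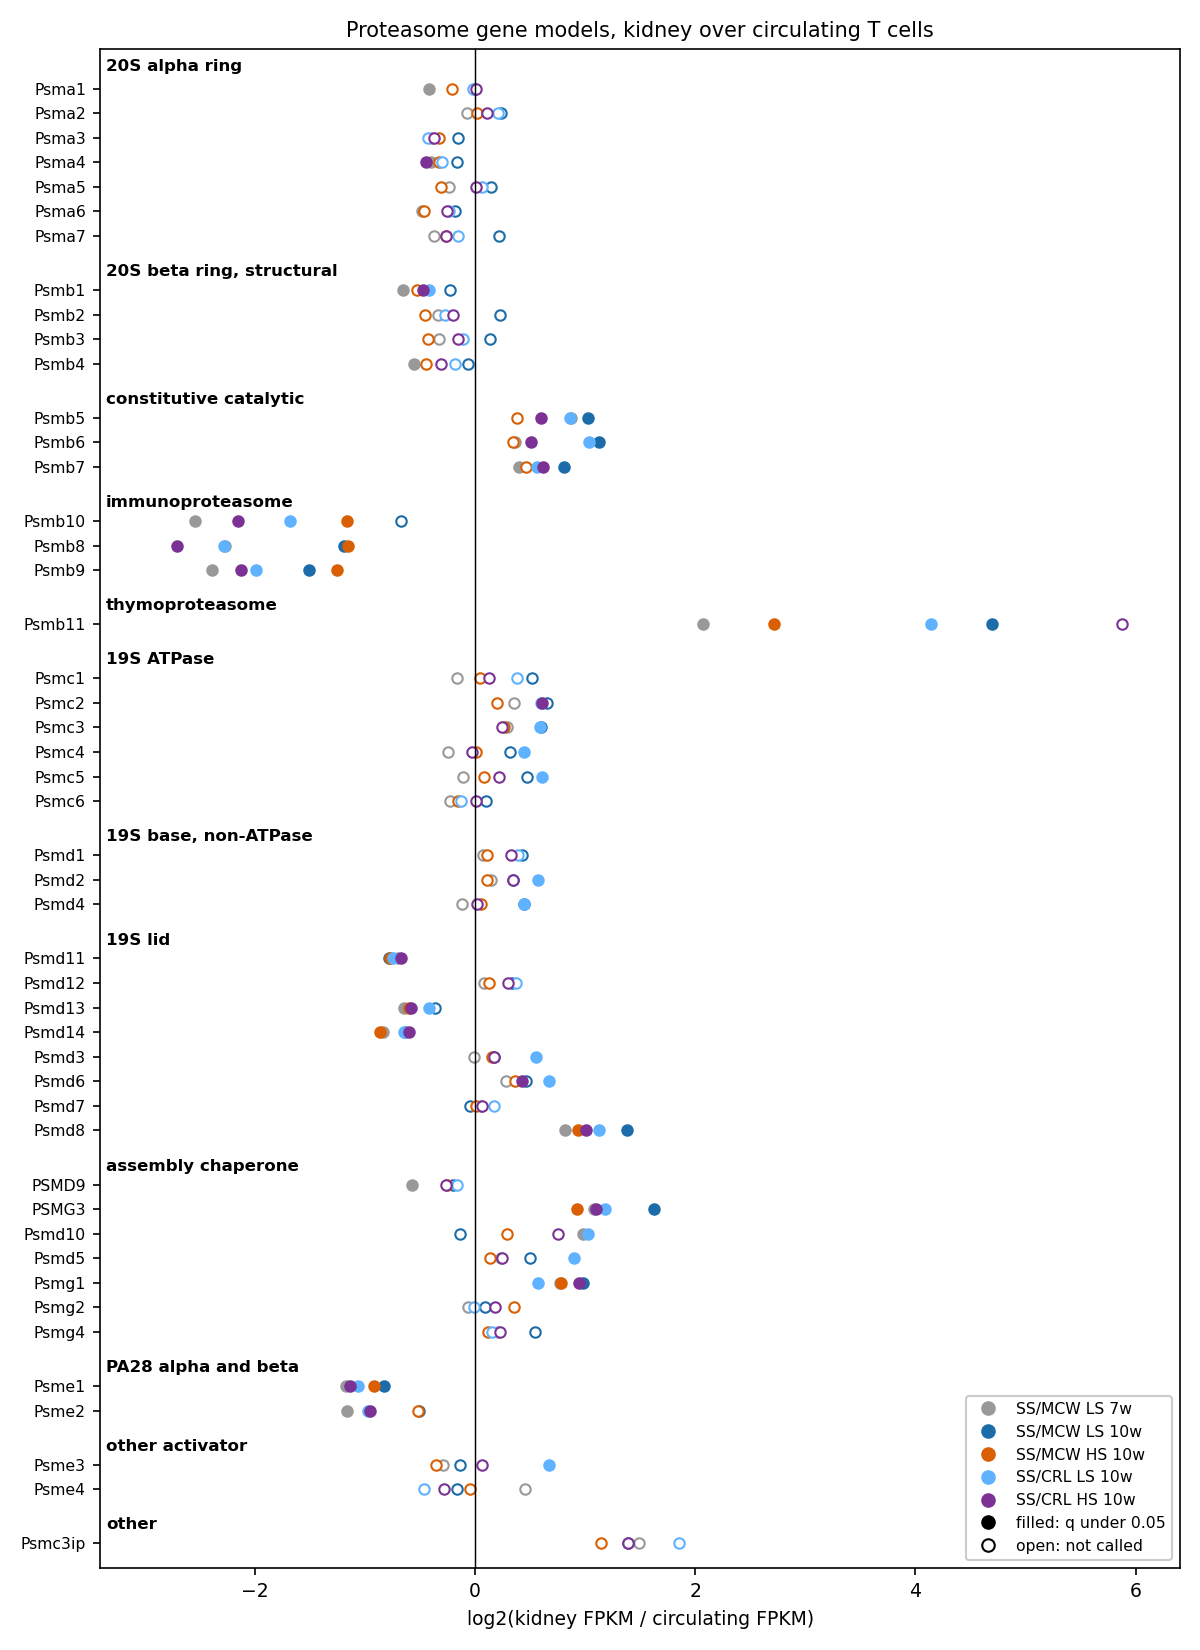
Log2 ratio of kidney to circulating FPKM (x axis) for the proteasome gene models that reach 5 FPKM in any group, ordered by role (y axis), with 1 point for each of the 5 groups of rats, filled where q was under 0.05. Psmb8, Psmb9 and Psmb10 lie between -2.70 and -0.67, their partners Psmb5, Psmb6 and Psmb7 between 0.35 and 1.13, and most other core and regulatory particle genes close to 0.

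The make-up of the catalytic subunits can be given as the summed FPKM of Psmb8, Psmb9 and Psmb10 over that of Psmb5, Psmb6 and Psmb7. In circulating cells this ratio was 1.74 at 7 weeks, 1.65 and 1.73 in LS- and HS-fed 10-week SS/MCW rats, and 1.70 and 1.76 in LS- and HS-fed SS/CRL rats. It varied little among the circulating groups, although the sum of the immunoproteasome genes itself ranged from 442 to 632 FPKM. In kidney the ratio was 0.22, 0.39, 0.58, 0.25 and 0.23 in the same order. The immunoproteasome genes thus made up 62.2% to 63.7% of the FPKM of both sets in circulating and 17.9% to 36.6% in kidney groups. The ratio has no test, because the tables hold 1 value per group.

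The kidney group with the highest ratio, HS-fed SS/MCW rats, was also the one with the most T cell RNA. The median of the 17 T cell marker genes in kidney was 3.40% of the circulating level at 7 weeks, 6.24% and 14.4% in LS- and HS-fed 10-week SS/MCW rats, and 3.49% and 2.91% in LS- and HS-fed SS/CRL rats. Psmb8 in kidney was 15.4% to 45.1% of the circulating level, Psmb9 19.1% to 42.1% and Psmb10 17.2% to 62.7%. In each of the 5 groups of rats the kidney percentage of Psmb8, Psmb9 and Psmb10 was above that of the highest T cell gene, which was 8.04%, 19.7%, 25.6%, 19.4% and 10.0% in that order. Summed macrophage markers were also highest in kidney of HS-fed SS/MCW rats, at 873 FPKM against 153 to 369.5 FPKM in the other kidney groups. Which cells of the kidney samples held the immunoproteasome RNA was not tested.

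**Figure D3:**
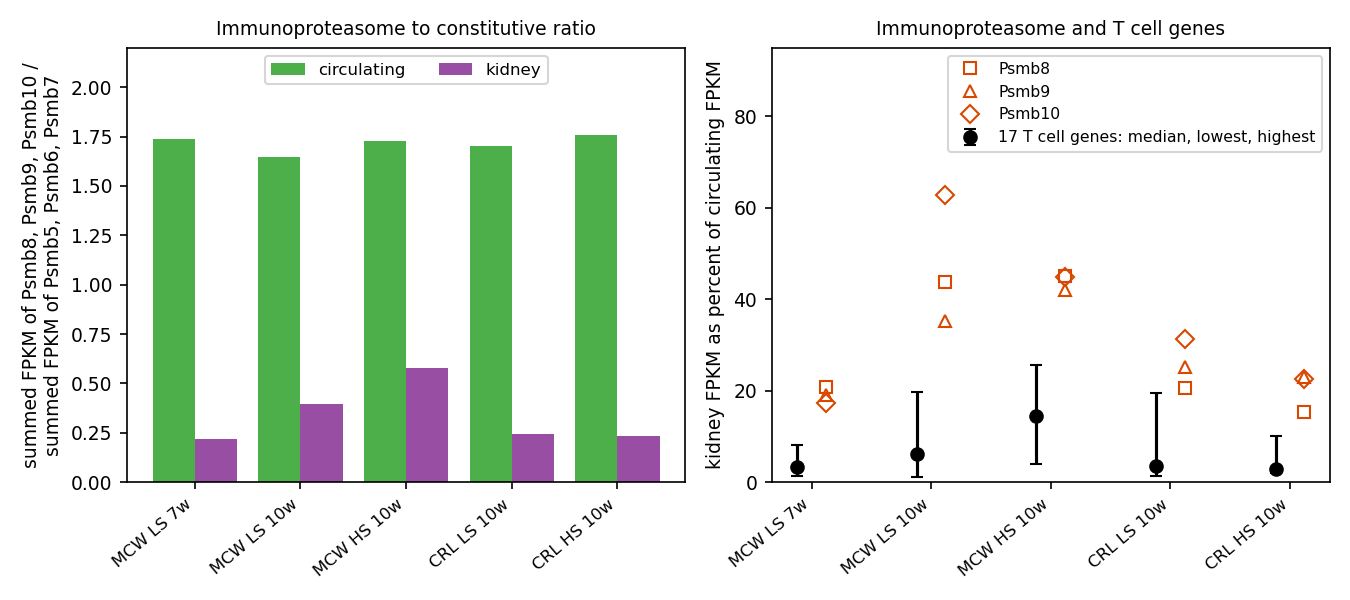
Left, summed FPKM of Psmb8, Psmb9 and Psmb10 over that of Psmb5, Psmb6 and Psmb7 (y axis) in circulating and kidney groups (x axis); the circulating bars lie between 1.65 and 1.76 and the kidney bars between 0.22 and 0.58. Right, kidney FPKM as a percentage of circulating FPKM (y axis) for 3 immunoproteasome genes and for 17 T cell genes (point, median; bar, lowest to highest), which the 3 genes exceed in every group.

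Within kidney, all 3 immunoproteasome subunits were lower in SS/CRL than in SS/MCW rats on high salt, and the thymoproteasome subunit was higher. Psmb8 was at 114 FPKM in SS/MCW and 37.2 FPKM in SS/CRL rats, a 3.06-fold difference with q = 0.00149 per the authors' deposited table. Psmb9 was at 88.4 against 41.8 FPKM, 2.11-fold lower in SS/CRL rats, and Psmb10 at 99.2 against 46.6 FPKM, 2.13-fold lower. Psmb11 was higher in SS/CRL rats, at 10.3 against 1.61 FPKM. These 4 were the only members called, 1 higher and 3 lower, where 2.75% and 2.97% of all tested gene models were called higher and lower. The constitutive partners did not pass the test: Psmb5 was at 208 FPKM in SS/MCW and 216 FPKM in SS/CRL rats, Psmb6 at 143 and 132 FPKM, and Psmb7 at 171 and 190 FPKM.

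The PA28 genes did not pass the test in this comparison. Psme1 was at 589 FPKM in SS/MCW and 469.5 FPKM in SS/CRL rats, and Psme2 at 146 and 104 FPKM. Immune cell markers moved with the immunoproteasome genes: 15 of 17 T cell, 5 of 5 leukocyte, 8 of 9 tested macrophage and 5 of 5 tested natural killer cell markers were called lower in SS/CRL rats, and 6 of 14 proximal tubule markers higher. The median log2 ratio was -1.84 for the T cell markers and -2.32 for the macrophage markers, and the log2 ratio was -1.61, -1.08 and -1.09 for Psmb8, Psmb9 and Psmb10. The part of these markers in the difference was not tested. With a normal p of the deposited statistic 0 members were called in this comparison.

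On low salt, 0 members were called between SS/CRL and SS/MCW kidney by Cuffdiff, with 3 at an unadjusted p under 0.05, where 1.36% and 0.444% of all gene models were called higher and lower. Psmb10 was at 105 FPKM in SS/MCW and 47.5 FPKM in SS/CRL rats, 2.21-fold lower, with q = 0.12 per the authors' deposited table. Psmb8 was at 82.3 and 37.9 FPKM and Psmb9 at 53.5 and 38.4 FPKM. All 5 genes of the immunoproteasome and PA28 had lower values in SS/CRL rats, as they did on high salt, in comparisons that share no group. On low salt this was not particular to them. The median log2 ratio of all members was -0.18, against -0.02 over all gene models with 5 FPKM in both groups. On high salt the members' median was 0.03. At the levels scaled with circulating cells, Psmb5 was at 216 FPKM in LS-fed SS/MCW and 183 FPKM in LS-fed SS/CRL kidney. Psmb6 was at 166 and 140 FPKM there, and Psmb7 at 157 and 133 FPKM. Some of the marker lists repeated in part. In SS/CRL rats 2 of 9 tested macrophage and 2 of 5 tested natural killer cell markers were called lower, with median log2 ratios of -1.21 and -0.92. Of 14 proximal tubule markers 6 were called higher, with 1.45. Of 15 tested T cell markers 1 was called lower, with a median of -0.22, and of 5 leukocyte markers 0 were, with -0.47. Endothelial markers went opposite ways, with medians of -0.98 on LS and 0.74 on HS. The part of these markers was not tested.

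High salt within a rat type changed at most 1 member in kidney. In SS/MCW rats 0 members were called by Cuffdiff, with 2 at an unadjusted p under 0.05, where 0.258% and 0.175% of all gene models were called higher and lower. Psmb8 went from 83.8 FPKM on LS to 110.2 FPKM on HS, Psmb9 from 54.8 to 85.8 FPKM and Psmb10 from 106.5 to 96.2 FPKM, none of them called. Psmb11 was at 7.22 FPKM on LS and 1.57 FPKM on HS, with q = 0.156 per the authors' deposited table. In the same comparison 3 of 16 tested T cell markers, 3 of 5 leukocyte markers and 1 of 9 tested macrophage markers were called higher on HS, with a median log2 ratio of 1.35 for the T cell markers, and 2 of 4 red cell markers were called lower, with a median of -3.32. Their part in the values of the members was not tested.

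In SS/CRL rats Psme3, the PA28 gamma gene, was the only member called, lower on HS at 172 against 278 FPKM with q = 0.045 per the authors' deposited table, where 2.44% and 3.07% of all gene models were called higher and lower. Psmb8 was at 38.7 FPKM on LS and 36.3 FPKM on HS in those rats. Beside this, 10 of 14 proximal tubule markers were called lower on HS. In addition, 3 of 4 red cell markers were called lower, with a median log2 ratio of -2.22 and a summed level of 3103 FPKM on LS and 679 FPKM on HS, and 4 of 6 endothelial markers were called higher. Their part in the Psme3 difference was not tested. With a normal p of the deposited statistic Psme3 was not called, and 0 members were. The Psme3 model overlaps 4 other gene models without a symbol, so its reads may be shared with them.

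From 7 to 10 weeks in LS-fed SS/MCW rats, Psmb10 was the only member called in kidney, where 0.774% and 0.297% of all gene models were called higher and lower. It rose from 42.8 to 106 FPKM, 2.49-fold, with q = 0.0216 per the authors' deposited table. Psmb8 was at 52.9 and 83.8 FPKM and Psmb9 at 39.3 and 54.7 FPKM, not called. Beside it, 1 of 16 tested T cell markers and 2 of 9 tested macrophage markers were called higher, with median log2 ratios of 0.50 and 1.12, and 2 of 4 red cell markers, with 2.76. Their part in the rise was not tested. With a q under 0.01, or with a normal p of the deposited statistic, 0 members were called in this comparison.

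Within circulating T cells, proteasome genes had small differences that mostly shared a sign with age and with salt, of which nearly none passed the test. The signs were shared by some related lists and not by others. Ubiquitin and p97 genes had median log2 ratios of -0.24 for 10 over 7 weeks and 0.10 and 0.11 for salt in SS/MCW and SS/CRL rats. Proteasome partners without a matching symbol had -0.03, 0.08 and 0.04 in that order. All gene models with 5 FPKM in both groups had -0.05, 0.07 and 0.05. Class I peptide loading genes had -0.03, 0.11 and 0.15. Interferon response genes had 0.13, -0.02 and -0.04, and proteasome gene regulators 0.04, 0.03 and 0.02. From 7 to 10 weeks in SS/MCW rats, 41 of the 47 members with at least 1 FPKM were lower at 10 weeks. Their median log2 ratio was -0.32, against -0.05 over all gene models with 5 FPKM in both groups. The share of all gene models with the same sign is not given here. This count and those on high salt are thus to be read beside the medians. Psmb10 fell from 200.4 to 132 FPKM and Psma7 from 398 to 269 FPKM, with q = 0.0209 and q = 0.0391 per the authors' deposited table. Beside this, 3 of 4 red cell markers were called lower at 10 weeks, with a median log2 ratio of -1.69 and a summed level of 174 FPKM at 7 weeks and 53.4 FPKM at 10 weeks, and 0 of 17 T cell markers were called, with a median of -0.12. The part of the markers in the shift of the members was not tested. Psmb10 and Psma7 were the only 2 members called, both lower, where 1.02% and 0.918% of all gene models were called higher and lower. At an unadjusted p under 0.05 there were 19 members, a count for which the share of all gene models is not given here. With a q under 0.01, or with a normal p, neither was called. The constitutive subunit Psmb5 was not called, and was at 137 FPKM at 7 weeks and 95.4 FPKM at 10 weeks, with q = 0.0653 per the authors' deposited table, and Psmb9 was at 165 and 122 FPKM.

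On high salt the sign was the other one. In SS/MCW rats 44 of 47 members had a higher FPKM on HS. The median log2 ratio was 0.27 against 0.07 over all gene models. By Cuffdiff 0 members were called, with 9 at an unadjusted p under 0.05, where 0.0355% and 0.0711% of all gene models were called higher and lower. Psmb8 was at 149 FPKM on LS and 199 FPKM on HS, Psmb9 at 122 and 166 FPKM, and Psmb10 at 132 and 175 FPKM. The constitutive partners had ratios of the same sign, such as Psmb5 at 95.6 and 126 FPKM. Of the markers, 0 of 3 tested red cell genes and 0 of 17 T cell genes were called, with median log2 ratios of 0.30 and 0.07. This comparison and that of 7 with 10 weeks share the SS/MCW group on LS at 10 weeks, so their opposite signs are not separate observations.

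SS/CRL rats, which share no circulating group with those comparisons, gave 45 of 47 members a higher FPKM on HS. The median log2 ratio was 0.21 against 0.05 over all gene models. Again 0 members were called by Cuffdiff, with 11 at an unadjusted p under 0.05, where 0.216% and 0.454% of all gene models were called higher and lower. Psmb10 was at 125 FPKM on LS and 163 FPKM on HS (q = 0.187), and Psmc3, an ATPase, at 75.6 and 99.6 FPKM (q = 0.15), both per the authors' deposited table. Psme1 was at 645 and 815 FPKM. Beside this, 3 of 4 red cell markers were called higher on HS, with a median log2 ratio of 0.87 and a summed level of 76.4 FPKM on LS and 141 FPKM on HS, and 0 of 17 T cell markers were called, with a median of 0.10. The part of the markers was not tested. Members that share a sign are not replicates of the comparison, and no p is given for the list.

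Between the rat types, circulating T cells had nearly the same proteasome levels. On LS 0 members were called by Cuffdiff and 0 had an unadjusted p under 0.05, where 0.412% and 0.129% of all gene models were called higher and lower. The median log2 ratio of SS/CRL over SS/MCW was -0.05 on LS, and Psmb8 was at 153 FPKM in SS/MCW and 151 FPKM in SS/CRL rats. On HS 0 members were called and 0 had an unadjusted p under 0.05, where 0.2% and 0.0412% of all gene models were called. The median was -0.12 on HS, against -0.04 over all gene models, and Psmb8 was at 200.5 and 185 FPKM. There 3 of 4 red cell and 2 of 6 natural killer cell markers were called higher in SS/CRL rats.

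**Figure D4:**
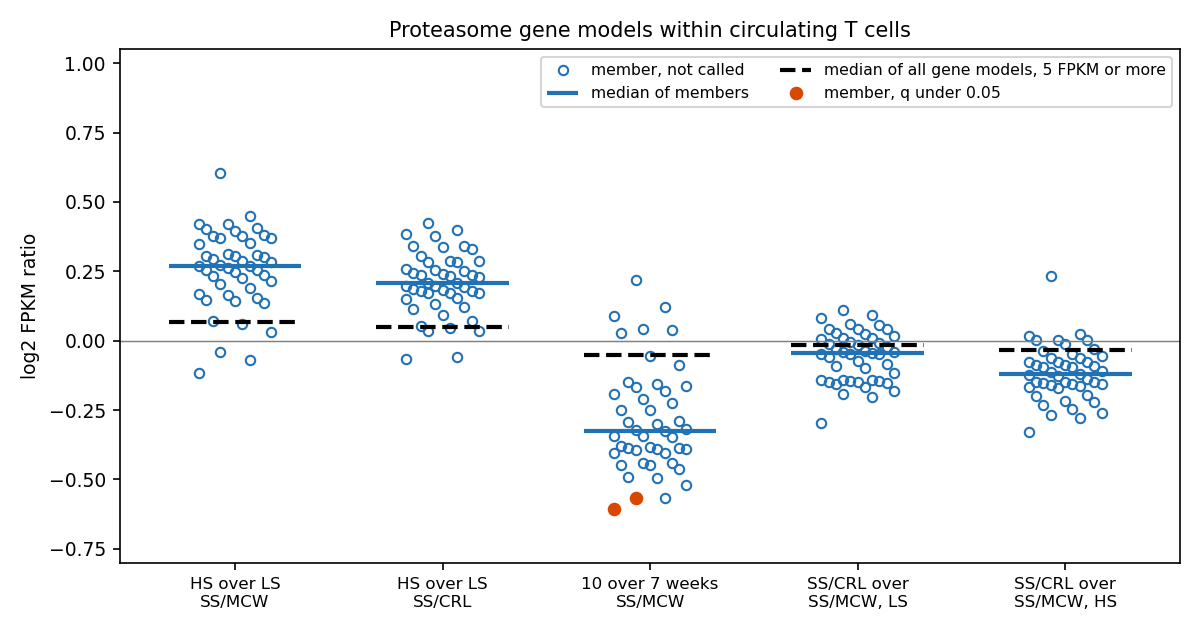
Log2 FPKM ratios (y axis) of proteasome gene models with at least 1 FPKM in the 5 comparisons within circulating T cells (x axis); the blue line is the members' median and the dashed line that of all gene models with 5 FPKM in both groups. Most members lie above 0 for HS over LS, with medians of 0.27 and 0.21, and below 0 for 10 over 7 weeks, with a median of -0.32, where Psmb10 and Psma7 are the 2 called.

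Whether the effect of salt differed between rat types or tissues was tested from the standard errors that the deposited statistics imply. In kidney, 0 of 49 members differed between SS/MCW and SS/CRL rats, where 0% of all gene models did. For Psmb8 the difference of the log2 salt effects was 0.49, with a 95% interval of -1.82 to 2.80, and for Psmb9 it was 0.59, with -1.55 to 2.72. In circulating cells 0 of 48 differed, where 0.0367% of all did, and the Psmb8 difference was 0.08, with an interval of -1.14 to 1.30. Between kidney and circulating cells 0 of 47 differed in SS/MCW rats, where 0.00801% of all did, and 0 of 47 in SS/CRL rats, where 0.034% did. Over all gene models, only 109 of 16429 in kidney and 27 of 16360 in circulating cells had an unadjusted p under 0.05. Between tissues these were 30 of 12479 in SS/MCW and 108 of 11761 in SS/CRL rats. Such shares are far under 0.05, so the test was conservative, the 95% is nominal, and few calls were possible. These intervals leave room for differences of more than 1 log2 unit in either direction, so they do not show that the effects were alike.

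Genes of class I peptide loading, which carry proteasome products to the cell surface, were called lower in kidney more often in SS/CRL than in 10-week SS/MCW rats, a difference that was not tested. Of 9 tested, 5 were called lower and 1 higher at 7 weeks, 3 and 0 in 10-week LS-fed SS/MCW rats, 2 and 0 on HS, and 7 and 0 and 6 and 0 in LS- and HS-fed SS/CRL rats. The shares of all gene models called lower were 23.9%, 17%, 18.4%, 22% and 20.3% in that order, and those called higher 32.9%, 26.6%, 30.6%, 31.5% and 30.6%, so the 2 of 9 in HS-fed SS/MCW rats is near the background. B2m, the light chain of class I molecules, was called in all 5, at 2853 to 3309 FPKM in circulating and 332 to 839 FPKM in kidney groups. Nlrc5, the class I transactivator, was also called in all 5, at 76.1 to 94.4 against 6.86 to 20.2 FPKM. The model of the peptide transporter genes Tap1 and Tap2, called in 4, was at 52.3 to 59.2 against 11.8 to 32.9 FPKM. It lies at the same locus as the Psmb8 model, so reads in this stretch of chromosome 20 may be shared between them. Calr, a chaperone found in most cells, was the 1 called higher, at 7 weeks. Within the tissues, only the Tap1 and Tap2 model was called, lower in SS/CRL than in SS/MCW kidney on HS, beside the same shift of T cell markers given above.

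Interferon response genes were called lower more often than higher in kidney in each tissue comparison, whereas all gene models were called higher more often. Of 17 tested, 7 were called lower and 2 higher at 7 weeks, 6 and 1 in 10-week LS-fed SS/MCW rats, 5 and 2 on HS, and 9 and 0 and 9 and 1 in LS- and HS-fed SS/CRL rats. Over all gene models the shares called lower were 23.9%, 17%, 18.4%, 22% and 20.3%, and those called higher 32.9%, 26.6%, 30.6%, 31.5% and 30.6%. Mx1, an antiviral GTPase, was called lower in all 5, at 123 to 156 FPKM in circulating and 4.29 to 15.4 FPKM in kidney groups. Irf9 was lower in all 5 as well, but its model also carries Rnf31 and overlaps that of Psme2. Rsad2 was called higher in 4, at 0.30 to 0.50 FPKM in circulating and 1.16 to 2.40 FPKM in kidney groups. Isg15, a ubiquitin-like protein, was called in none, at 17.2 to 24.0 and 14.9 to 48.9 FPKM. Within circulating cells 0 of the interferon response genes were called in any of the 5 comparisons, and in kidney Mx1 and Bst2 were called, both lower in SS/CRL than in HS-fed SS/MCW rats.

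Regulators of constitutive proteasome genes were called in both directions. NFE2L1, the factor that raises proteasome genes when proteasome activity is short, had 9.99, 10.3, 10.3, 10.7 and 12.2 FPKM in circulating and 49.4, 47.0, 44.0, 30.3 and 46.2 FPKM in kidney groups, and was called higher in all 5. Nfe2l2, the oxidative stress factor, was called higher in all 5, at 7.51 to 9.29 against 43.8 to 53.2 FPKM, and so was their partner Mafg, at 2.65 to 3.13 against 11.7 to 22.6 FPKM. Ngly1, the enzyme that processes the NFE2L1 protein, was called lower in all 5, at 36.6 to 40.7 against 21.4 to 26.6 FPKM. Of the 10 regulators, 4 were called higher and 3 lower at 7 weeks, 3 and 1 in 10-week LS-fed SS/MCW rats, 5 and 2 on HS, and 4 and 3 on both chows in SS/CRL rats. Of all gene models 32.9% and 23.9%, 26.6% and 17%, 30.6% and 18.4%, 31.5% and 22%, and 30.6% and 20.3% were called higher and lower, so counts over 10 genes do not set the list apart. Within circulating cells 0 were called in any comparison, and in kidney Mafg and the protease Ddi2 were called, both lower on HS than on LS in SS/CRL rats.

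Proteasome partners without a matching symbol included genes called in both directions. Of 15 tested, 2 were called higher and 4 lower at 7 weeks, 1 and 0 in 10-week LS-fed SS/MCW rats, 3 and 2 on HS, and 5 and 4 and 4 and 5 in LS- and HS-fed SS/CRL rats, to be read against the shares of all gene models just given. Txnl1, a thioredoxin-like protein of the 19S particle, was called higher in all 5, at 34.6 to 39.5 FPKM in circulating and 64.6 to 80.1 FPKM in kidney groups. Adrm1, a ubiquitin receptor of the 19S base, was called higher in 4, at 47.3 to 62.6 against 80.4 to 95.2 FPKM. The deubiquitinases of the 19S particle were lower: Usp14 was called in 4, at 28.7 to 32.0 against 15.6 to 23.0 FPKM, and Uchl5 in 4, at 21.9 to 25.5 against 11.9 to 16.0 FPKM. Psmf1, the inhibitor PI31, was called in none, at 38.0 to 42.4 and 33.9 to 41.1 FPKM.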

How the data were processed

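RNA of 40 libraries in 10 groups had been sequenced, and 15 deposited tables of gene models, each comparing a pair of groups, were used. Per the submitters' processing notes, cutadapt, Trim Galore 0.2.5, TopHat2 2.1.1, Cufflinks 2.2.1, Cuffdiff and build rn5 were used; no role or order is given. Per the file headers, each table holds 1 FPKM value per group and gene model, a test statistic (a score) from the authors' Cuffdiff runs, and its p-value and q-value as deposited, of which the smallest p is 5e-05. FPKM values are scaled within each table, so a group differs slightly between tables. How libraries were combined within Cuffdiff is not given in the sources used here, depth is unknown, and nothing says whether the spread behind the p-values is biological or technical beyond the pools of 3 rats.

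Groups were taken from the labels. Levels came from the 5 tables of kidney over circulating cells. Ratios were computed again from the FPKM values, and 1 table was turned round so that 10 weeks is set over 7 weeks. A gene model was called where it was tested and its deposited q was under 0.05. Medians over members use those that reach 1 FPKM in either group, and medians over all gene models those with at least 5 FPKM in both. The difference between salt effects was tested with standard errors equal to the log2 ratio over the deposited statistic, a two-sided normal p and Benjamini-Hochberg adjustment over all gene models. The test of differences was run on simulated effects drawn with these same standard errors, so that run could not show whether they are too wide. Alternatives were a q under 0.01, a normal p of the statistic, a filter at 1 FPKM with new adjustment of p, the normal p recentred on the median of all gene models, gene models with 1 symbol only, other floors and a pseudocount of 1 FPKM for medians, and other tables for the levels. The scripts ran on Python 3.11.15 with scipy 1.17.1, numpy 2.4.6 and pandas 2.3.3, and figures were drawn with matplotlib 3.10.9.

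Named by rule were Psmb5 to Psmb11, Psme1 to Psme4, the 3 largest called rises and falls of a comparison among members that reach 5 FPKM in either group, the highest and lowest member of each role, members with an unclear symbol, and up to 4 called genes of each related list. Other members are named to account for each role and were chosen after their values were seen, as were Calr, Isg15 and Psmf1. The members and lists were chosen with earlier results of these data known. Promoters and motifs came from RefSeq, build GRCr8, and no position was moved between builds. No protein sequence is shown. Of the members, 11 have another gene model at the same locus: Psma3, Psmb3, Psmb6, Psmb8, Psmc1, Psmc5, Psmd1, Psme1, Psme2, Psme3 and Psmc3ip. Their reads may be shared, and whether counting used strand is not given in the sources used here.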

Additional observations from a re-analysis of the deposited data

How the results depend on the processing

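With a normal p of the deposited statistic, 7 members were called between kidney and circulating cells in HS-fed SS/CRL rats, 7 in LS-fed SS/CRL rats, 0 in HS-fed SS/MCW rats, 1 in 10-week LS-fed SS/MCW rats and 5 at 7 weeks. Recentred on the median of all gene models, the same p called 10, 8, 0, 2 and 10. Either way 0 were called for the age comparison in kidney and in circulating cells, for salt in SS/CRL kidney and for rat type on HS in kidney. With a q under 0.01, 7 of the 11 calls were counted for 10-week LS-fed SS/MCW rats, without Psmb8, Psme1, Psmb7 and Psma3l, and 0 for age in kidney, age in circulating cells and salt in SS/CRL kidney. The normal p was set beside Cuffdiff's own p only as a count, and the cause of the gap was not tested. The other 53 counts lay within 1.5 times the main count. All 45 medians, 30 catalytic ratios and 8 counts of salt-effect differences stayed within the limits set for a change (0.1 log2 for a median). Many of the 53 counts and all 8 of the differences were 0 in the main setting, which a stricter setting cannot lower. Most ratio checks took the same group from another comparison, where scaling cancels in a ratio. Such agreement was largely set in advance and says little about how firm the results are. No paired analysis was possible because the tables hold 1 value per group, and for the same reason no library could be left out in turn. The labels give the tissues the same pool numbers, and whether these mark the same rats was not tested. Depth is unknown, so low members such as Psma8 and Psmb11 carry no counting interval.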

Other observations

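Ubiquitin genes and the p97 system, which tag proteins and unfold them ahead of the proteasome, were called lower more often than higher in kidney. Of 13 gene models, 7 were called lower and 2 higher in kidney at 7 weeks, 4 and 2 in 10-week LS-fed SS/MCW rats, 5 and 1 on HS, and 7 and 2 on both chows in SS/CRL rats. Over all gene models 23.9% and 32.9%, 17% and 26.6%, 18.4% and 30.6%, 22% and 31.5%, and 20.3% and 30.6% were called lower and higher in the same order, with LS before HS for SS/CRL rats. Rps27a, which encodes ubiquitin fused to a ribosomal protein, was called lower in all 5 comparisons, at 4591 to 6216 FPKM in circulating and 863 to 1616 FPKM in kidney groups. It stands on 2 gene models and has near copies, as other ubiquitin genes do, so its level is uncertain. Uba6, a ubiquitin-activating enzyme, was called lower in all 5, at 5.73 to 7.65 against 2.57 to 3.46 FPKM, and so was Nploc4, a p97 adaptor, at 19.1 to 21.8 against 10.1 to 15.1 FPKM. Nsfl1c, the p97 cofactor p47, was called higher in 4, at 45.8 to 63.9 against 73.3 to 119 FPKM. Vcp, p97 itself, was called in none, at 102 to 115 and 108 to 123 FPKM. Within either tissue 0 of the 13 were called by Cuffdiff in any of the 10 comparisons.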
